A study of Mus musculus with 13 samples.

Results

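Cathepsin L, encoded by Ctsl, is the protease whose loss in thymic epithelium defines the mutant mice studied here, and the question asked of these libraries was what T cells with an intact Ctsl gene do with their own Ctsl and with the proteases around it. The group comprised 10 genes chosen by name: the cysteine cathepsins Ctsl, Ctss, Ctsb, Ctsh, Ctsc, Ctsz and Ctsw, the aspartic cathepsin Ctsd, the asparaginyl endopeptidase legumain (Lgmn) and the inhibitor cystatin C (Cst3). All 10 were found among the 35906 genes of the summed table, and 9 had at least 10 estimated counts in every library. Ctsh was the exception, with 0 to 41 counts per library.

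The cells were M2 CD4SP thymocytes, the most mature CD4 single-positive stage, sorted as CD69- MHCI+ cells, and 13 libraries were made from 1 mouse each. Every mouse was Rag1-/- and carried the Lm54 transgene, a T cell receptor specific for the listeriolysin O (LLO) peptide bound to I-Ab, so both genotypes shared 1 receptor and lacked endogenous receptor rearrangement. CtslΔTEC mice lack Ctsl in thymic epithelial cells through a conditional allele and Foxn1-cre, which is active in epithelium and not in T cells, and the labels call the controls Ctsl fl/fl (WT). Unstimulated cells came from 5 CtslΔTEC and 4 WT mice. Cells stimulated for 4 h with plate-bound LLO:I-Ab monomer at 1 µg/ml and soluble anti-CD28 at 250 ng/ml came from 2 CtslΔTEC and 2 WT mice, which the labels number as further mice. The study used mice of both sexes at 8–12 weeks of age in general and does not give the age of single mice in the labels.

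Cathepsins are proteases of endosomes and lysosomes that are made as inactive proenzymes and matured by cleavage at low pH. In antigen-presenting cells they cut the invariant chain and trim peptides for MHC class II, with cathepsin L in that role in cortical thymic epithelium and cathepsin S in dendritic cells and B cells. Legumain cleaves after asparagine and processes several cathepsins, and cystatins are reversible inhibitors of papain-like cysteine cathepsins. T cells also make most of these enzymes, for turnover of lysosomal protein and, in cytotoxic cells, for activation of granule proteases.

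Libraries of unstimulated cells held 25692380 to 39127833 estimated counts and those of stimulated cells 8085463 to 27184520. T cell markers were high in every library, with a summed level of 3934 to 5557 TPM (a transcript abundance scaled to length and library size, which allows levels to be compared between genes) for 8 genes. Foxn1 and Krt5, which define thymic epithelium, were at most 0.0338 and 0.0252 TPM, and Krt14 was at 0 in all 13. The whole epithelial list of 12 genes summed to 25.2 to 42.9 TPM, most of it Ly75, Ccl25 and Epcam. Of 5 tested in unstimulated cells Epcam was called higher in CtslΔTEC mice (0.78, edgeR, adjusted p = 0.0469) and Prss16 lower, against 6.42% and 8.36% of all genes. Transcripts of 4 Y-linked genes summed to 171.0 to 242 TPM in all 5 unstimulated CtslΔTEC mice and 181 TPM in WT mouse 3, but to 2.11 to 3.02 TPM in the other 3 unstimulated WT mice, so sex and genotype partly overlapped in the unstimulated comparison. Each stimulated group had 1 mouse with and 1 without these transcripts. The deposited names of the unstimulated libraries carried 2 dates, the first on CtslΔTEC mice 1 and 3 and WT mouse 4. Those of the stimulated libraries had a date of their own. The labels do not say whether a date is that of the sort, the library or the sequencing.

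Unstimulated cells expressed the 10 genes over a wide range of levels, and the 6 highest came in the same order in both genotypes. Ctsd, the main lysosomal aspartic protease, led in WT cells with 283 ± 11.4 TPM (SD, n = 4). Ctsb followed at 100.3 ± 6.48 TPM and Ctss at 88.2 ± 6.64 TPM, with ranges that overlapped each other. Ctsc, the dipeptidyl peptidase that activates granzymes, at 64.8 ± 10.3 TPM, overlapped with Cst3 at 56.6 ± 5.81 TPM. Ctsz (36.9 ± 2.62 TPM), a carboxypeptidase, Lgmn (34.7 ± 2.55 TPM) and Ctsw (33.8 ± 7.67 TPM), a cathepsin of cytotoxic lymphocytes, formed a block in which neighbours overlapped. Ctsl stood well below them at 6.74 ± 1.64 TPM and Ctsh, an aminopeptidase, last at 0.217 ± 0.0814 TPM. In CtslΔTEC cells the order was the same down to Ctsz, after which Ctsw, Ctsl and Lgmn ran into one another at 15.9 ± 2.92, 12.6 ± 2.48 and 11.03 ± 1.79 TPM (SD, n = 5).

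**Figure D1:**
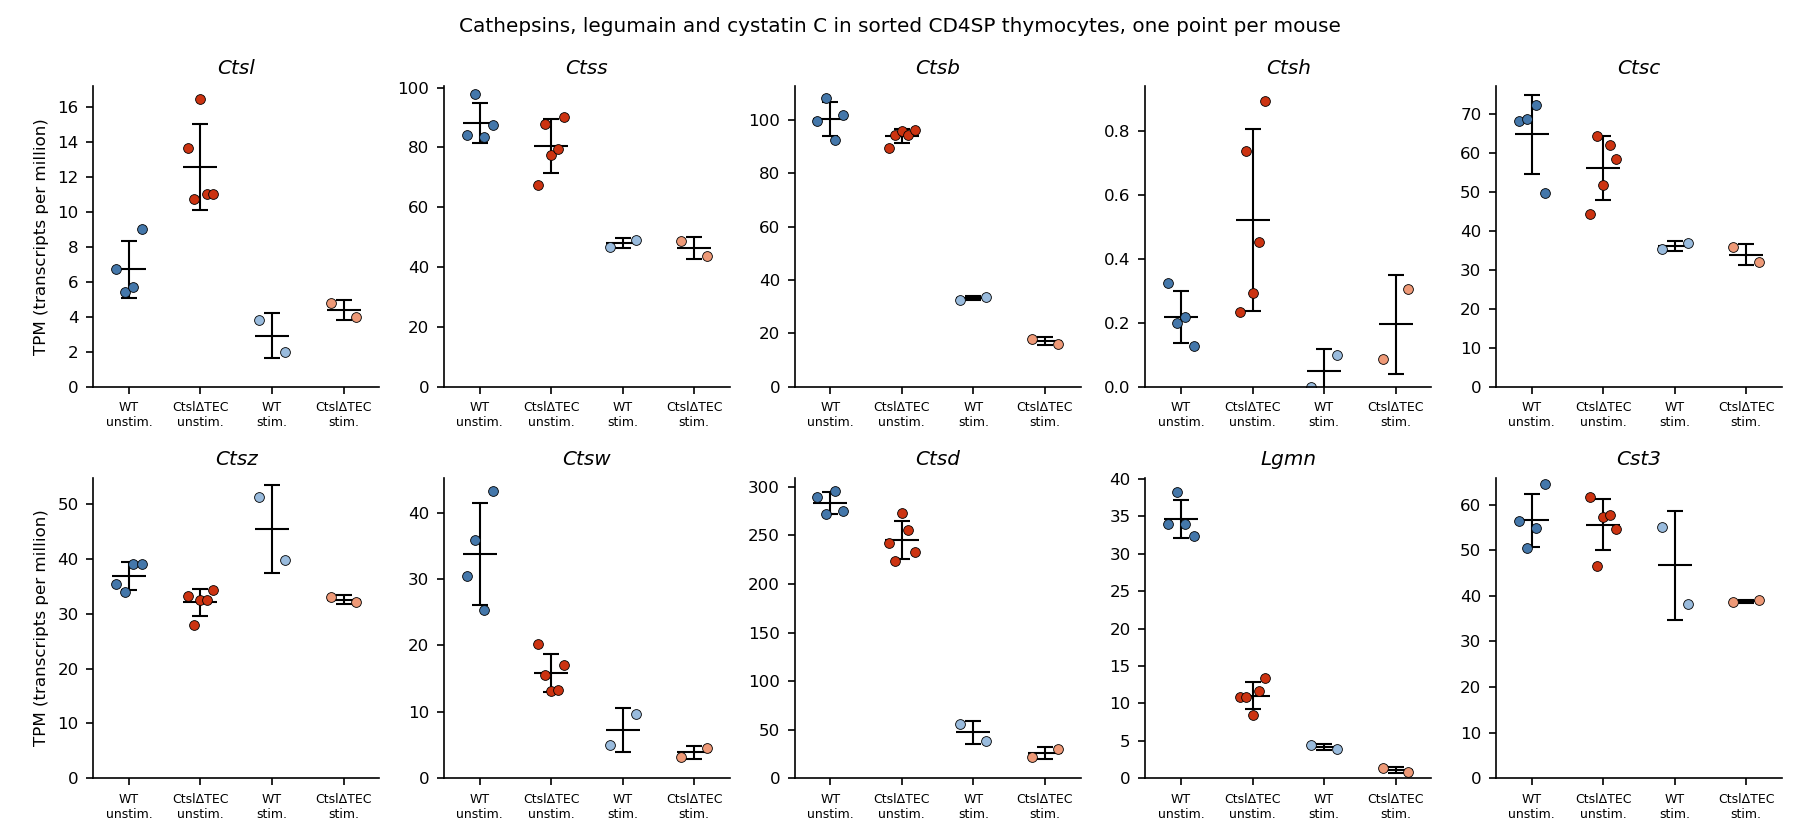
TPM of the 10 genes in each mouse (points, y axis, separate linear scale per gene) for unstimulated and stimulated WT and CtslΔTEC cells, with the group mean and SD as black marks. Among unstimulated mice, Ctsl lies higher in every CtslΔTEC mouse than in any WT mouse and Lgmn and Ctsw lie lower, and Ctsd and Ctsb drop in all 4 stimulated mice.

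Promoter sequences of the 3 members that carried a CACGTG motif are shown because Ctsd, Lgmn and Ctsl, which differed in direction between genotypes, share it. CACGTG is the E-box core that TFEB, TFE3 and other basic helix-loop-helix factors can bind, and it reads the same on both strands. RefSeq windows of GRCm38.p6, from 250 bases before to 50 after a start, were given for 7 of the 10 genes, in 8 windows, and 3 windows held the motif 4 times in all. Of all 32851 windows, 7.15% held it. The 30 bases around each match follow 5′ to 3′, with the motif in capitals, for Ctsd on the minus strand with the motif starting 245 and 98 bases before the start (chr7:142388048-142388077 and chr7:142387908-142387937), for Ctsl 236 bases before it (chr13:64370739-64370768) and for Lgmn 49 bases before it (chr12:102439124-102439153), both also on the minus strand:
Ctsd distal: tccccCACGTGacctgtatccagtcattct
Ctsd proximal: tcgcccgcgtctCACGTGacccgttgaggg
Ctsl: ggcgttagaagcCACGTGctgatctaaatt
Lgmn: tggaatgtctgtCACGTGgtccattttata
Distances count from the RefSeq starts, and by the gene spans of GENCODE M21 the Ctsl, Lgmn and proximal Ctsd matches lie inside the genes. The Lgmn match lay in the window of the inner of 2 RefSeq starts. The windows of Cst3, Ctsz, Ctss and Ctsc held no CACGTG. These libraries measured no binding, so the matches describe sequence alone.

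Ctsl itself was higher in cells selected on epithelium that lacked it. Its level was 13.7, 10.7, 16.5, 11.02 and 11.05 TPM in CtslΔTEC mice 1 to 5, against 6.77, 5.41, 5.73 and 9.03 TPM in WT mice 1 to 4. The lowest CtslΔTEC mouse thus lay above the highest WT mouse. The gene-wide fit (edgeR quasi-likelihood test with Benjamini-Hochberg adjustment) gave a log2 fold change of 0.85 ± 0.16 (SE), that is 1.81-fold, with an adjusted p of 0.00436, and an exact two-sided permutation test gave p = 0.00794, the smallest that 126 splits of 9 mice allow. Both dates gave the same direction: on the first, CtslΔTEC mice 1 and 3 had a mean of 15.1 TPM and the WT mouse 9.03 TPM, and on the second the means were 10.9 and 5.97 TPM in 3 mice each.

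The transcript that dominates the gene was among those that were higher. Ctsl spans chr13:64359337-64370890 on the minus strand of GRCm38 (ENSMUSG00000021477) and 7 of its transcripts were quantified. Ctsl-201, which is protein coding, had 9.09 ± 2.40 TPM in unstimulated CtslΔTEC cells and 4.37 ± 0.73 TPM in WT cells. It took 72.2% of the gene's TPM in the former and 66.6% in the latter, as means over mice. The protein-coding Ctsl-203 had 1.54 ± 0.96 and 0.61 ± 0.61 TPM, or 12.2% and 8.03%, and the retained-intron transcript Ctsl-202 took 10.4% and 13.2%. Transcripts were not tested one by one. Because the T cells of either genotype keep their own Ctsl, its level in them does not test the epithelial deletion.

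Markers of other cells were read beside this difference. The list of CD4CD8 double-positive (DP) thymocyte genes, which mark the stage before selection, summed to 391 to 482 TPM in CtslΔTEC mice and 187 to 225 TPM in WT mice, with no overlap. Of its 9 tested genes 7 were called higher and 0 lower, against 6.42% and 8.36% of all genes. Myeloid and dendritic markers (18 genes) summed to 14.2 to 21.99 TPM in CtslΔTEC and 12.3 to 18.2 TPM in WT mice. Of 12 tested, 3 rose (Csf1r, C1qb and Flt3, none above 3.57 TPM in any library) and 2 fell (Itgam and Fcgr3), against the same shares of all genes. The median log2 fold change over the 12 was 1.28. Cd14 was at 0 in every unstimulated WT mouse and reached 0.0472 TPM at most. The erythroid list was highest in CtslΔTEC mice 3 and 1, at 771 and 505 TPM, which also had the most Ctsl by TPM. By counts scaled to library size (CPM), CtslΔTEC mouse 4 had more Ctsl than mouse 1 (13.3 against 13.1). CtslΔTEC mice 2 and 4, at 160 and 172 TPM, lay below every WT mouse in erythroid transcripts and above every WT mouse in Ctsl. The part of DP-stage, myeloid and erythroid transcripts in the Ctsl difference was not tested. In bulk libraries, more cells of a type and more RNA per cell cannot be told apart.

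**Figure D2:**
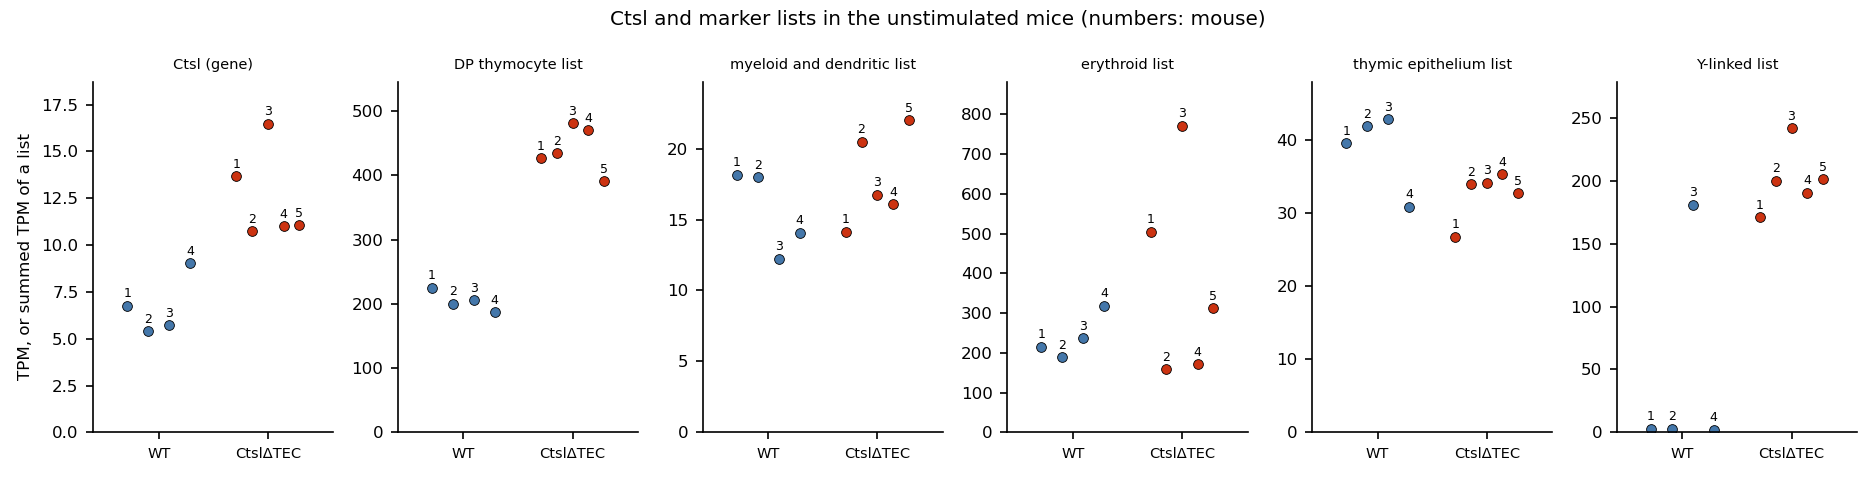
Ctsl (TPM) and the summed TPM of 5 marker lists in the 9 unstimulated mice, with mouse numbers beside the points and a linear scale from 0 in each panel. Ctsl and the DP list separate the genotypes without overlap, the other lists do not.

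No other cathepsin was called higher alongside Ctsl in the reported fit, though Ctsh was in some alternatives given below. Of the 10 genes, 5 passed the threshold of adjusted p under 0.1 in unstimulated cells, against 14.8% of the 13152 genes tested. Ctsl was the 1 that rose (6.42% of all genes were called higher) and 4 fell (8.36% were called lower). The ranges of log2 CPM did not overlap between genotypes for 4 of the 10, against 13.7% of all genes. The median log2 fold change of the group was -0.21, that of all genes 0.01.

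Lgmn fell furthest. It was at 34.0, 38.3, 34.0 and 32.4 TPM in WT mice 1 to 4 and at 10.8, 10.9, 8.42, 11.7 and 13.4 TPM in CtslΔTEC mice 1 to 5. Every CtslΔTEC mouse lay below every WT mouse, with a wide gap between the groups. The log2 fold change was -1.71 ± 0.12, a level 3.28-fold lower in CtslΔTEC cells (edgeR, adjusted p = 6.94e-06; exact permutation p = 0.00794). Lgmn lies at chr12:102394084-102439813 on the minus strand (ENSMUSG00000021190), and Lgmn-201 took 67.6% and 66.1% of its TPM in the unstimulated CtslΔTEC and WT groups. In stimulated cells, with 19 to 113 counts for the whole gene, Lgmn-201 held all of the TPM of the gene in the CtslΔTEC mice and 35.1% in WT mice, where Lgmn-202 took 56.2%.

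Ctsw also fell with no overlap. WT mice 1 to 4 had 30.5, 35.9, 25.4 and 43.3 TPM and CtslΔTEC mice 1 to 5 had 20.2, 15.5, 13.1, 13.3 and 17.1 TPM. The level in CtslΔTEC cells was 2.22-fold lower (log2 fold change -1.15 ± 0.18, edgeR, adjusted p = 0.00167; exact permutation p = 0.00794). The WT mouse with Y-linked transcripts, mouse 3, had the lowest Ctsw of its group and still lay above every CtslΔTEC mouse. With the mean of the Y-linked genes as a covariate the log2 fold change was -0.71 and the adjusted p 0.269, so the call was lost. Ctsw lies at chr19:5465043-5468507 (ENSMUSG00000024910), and the list of CD8 lineage and cytotoxic genes moved in both directions. Of 7 tested, 3 were called lower and 1 higher, against 8.36% and 6.42% of all genes. Nkg7 fell from 4.86 to 1.039 TPM, Klrd1 from 6.92 to 3.17 TPM and Runx3 from 40.6 to 35.2 TPM, Prf1 rose from 4.62 to 6.52 TPM, and the list summed to 49.9 to 57.3 TPM in CtslΔTEC and 54.9 to 72.6 TPM in WT mice. The 4 NK genes Ncr1, Klrb1c, Klrk1 and Klra8 summed to at most 0.711 TPM in any library. The part of cytotoxic cells in the Ctsw difference was not tested.

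Ctsd and Ctsz fell by small amounts. Ctsd was at 289.6, 272, 296 and 275 TPM in WT mice 1 to 4 and at 242, 224, 273, 256 and 233 TPM in CtslΔTEC mice 1 to 5. The 2 groups overlapped in TPM, in 1 CtslΔTEC mouse, and not in CPM, which scales counts to library size, where WT mice had 399.5 to 415 and CtslΔTEC mice 322 to 359.5. Its log2 fold change was -0.26 ± 0.06 (edgeR, adjusted p = 0.0122; exact permutation p = 0.00794). For Ctsz, the WT mice had 34.0 to 39.1 TPM and the CtslΔTEC mice 27.9 to 34.4 TPM, with a log2 fold change of -0.24 ± 0.08 (edgeR, adjusted p = 0.0926; exact permutation p = 0.0238). The call of Ctsd was lost with limma on TPM (adjusted p 0.112 and 0.115), with the model of all 13 libraries (0.229), with mouse number as a replicate block (0.125) and with the Y-linked covariate (0.221). That of Ctsz was lost in 11 of 16 other settings and in 6 of 9 fits that left out 1 mouse.

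The other 5 genes were not called in unstimulated cells. Ctss differed by -0.17 ± 0.10 on the log2 scale, Ctsb by -0.15 ± 0.07, Ctsc by -0.28 ± 0.15 and Cst3 by -0.07 ± 0.11 (edgeR, adjusted p 0.336, 0.177, 0.287 and 0.781), with exact permutation p of 0.167, 0.0317, 0.167 and 0.619. With date as a factor Ctsc was called (-0.21, adjusted p = 0.0934). Ctsb and Ctsc overlapped between genotypes, with 89.3 to 96.0 TPM against 92.3 to 108 TPM for Ctsb and 44.3 to 64.3 TPM against 49.7 to 72.5 TPM for Ctsc. Ctsh was the only member besides Ctsl with a positive value, 0.89 ± 0.37 (adjusted p = 0.162; exact permutation p = 0.0635). It rested on 13 to 41 counts in CtslΔTEC and 8 to 18 in WT libraries, and it passed the threshold within the second date alone (log2 fold change 1.05, adjusted p = 0.0854) with date as a factor (0.97, adjusted p = 0.0441) and without CtslΔTEC mouse 1 (1.07, adjusted p = 0.0533). Retained-intron transcript Ctsh-203 took 68.4% of the Ctsh TPM in CtslΔTEC cells and 82.0% in WT cells.

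**Figure D3:**
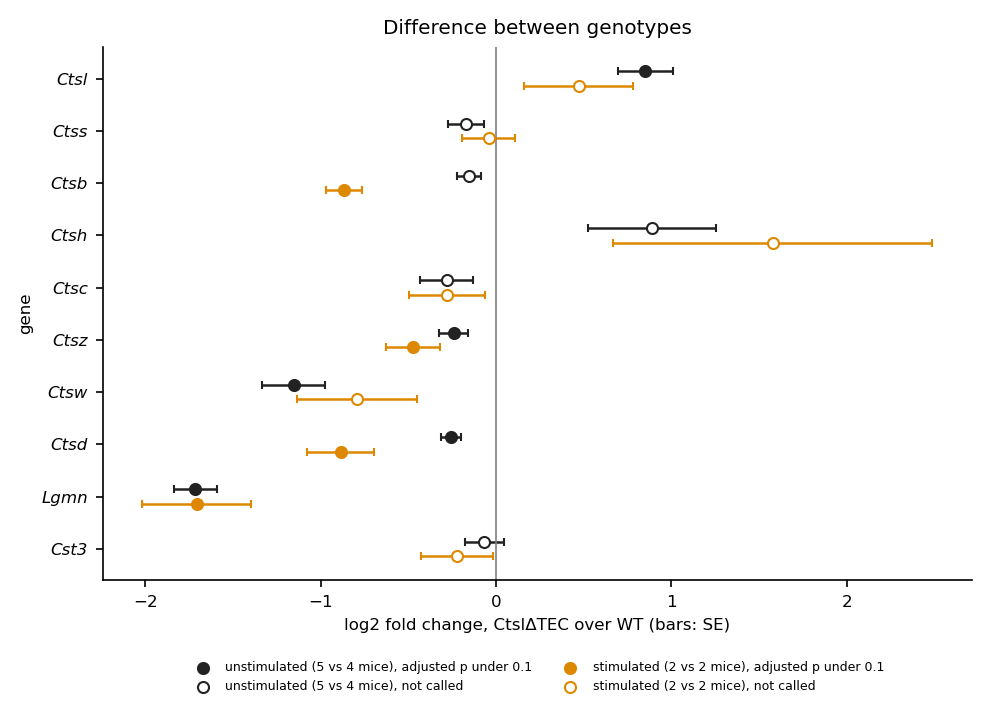
Log2 fold change of CtslΔTEC over WT (x axis) for each gene (y axis) in unstimulated (black) and stimulated (orange) cells, with SE bars and filled points for an adjusted p under 0.1. Lgmn sits at -1.71 in both conditions, Ctsl is called only in the unstimulated libraries, and Ctsb at -0.87 is called only in the stimulated ones.

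How closely the other members tracked Ctsl was described over libraries. Because Ctsl separated the genotypes without overlap, no correlation was computed across the 9 unstimulated mice. As a description over 13 libraries, deviations of log2 CPM from the group means gave a Pearson r with Ctsl of 0.66 for Cst3, 0.60 for Ctsd and 0.57 for Ctsz. Lgmn had 0.06, Ctsb -0.05, Ctss -0.22, Ctsc -0.28, Ctsw -0.47 and Ctsh -0.55. These libraries share dates and depth, and Cst3, Ctsd, Ctsz and Ctsl were each higher in the shallowest library, stimulated WT mouse 5, than in stimulated WT mouse 6. Over the 13 libraries without centring, the members ranked no better than 2308 (Ctsd, r = 0.61) among 10090 genes by likeness to Ctsl. The 5 genes most like Ctsl were Ginm1 (r = 0.94), Ntrk3 (0.92), Cep290 (0.92), Trdj1 (0.92) and Dnajc9 (0.91).

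Stimulation lowered most of the group in both genotypes. In WT cells 8 of 10 genes were called, against 67.7% of 14241 genes tested, 7 of them lower (34.8% of all genes) and Ctsz higher. In CtslΔTEC cells 8 were called, against 71.2% of all genes, and all 8 were lower (38.2% of all genes). The median log2 fold change of the group was -1.06 in WT and -0.90 in CtslΔTEC cells, against 0.01 and -0.06 over all genes. The summed TPM of the 10 genes was 705 ± 3.89 in WT and 604 ± 20.3 in CtslΔTEC cells without stimulation, and 271 ± 26.6 and 205 ± 1.79 TPM with it (SD, n = 4, 5, 2 and 2). Stimulated and unstimulated cells came from other mice and other dates, and only stimulated cells were kept in culture, so stimulation, culture and date cannot be told apart. All 10 activation markers were called higher with stimulation in either genotype.

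**Figure D4:**
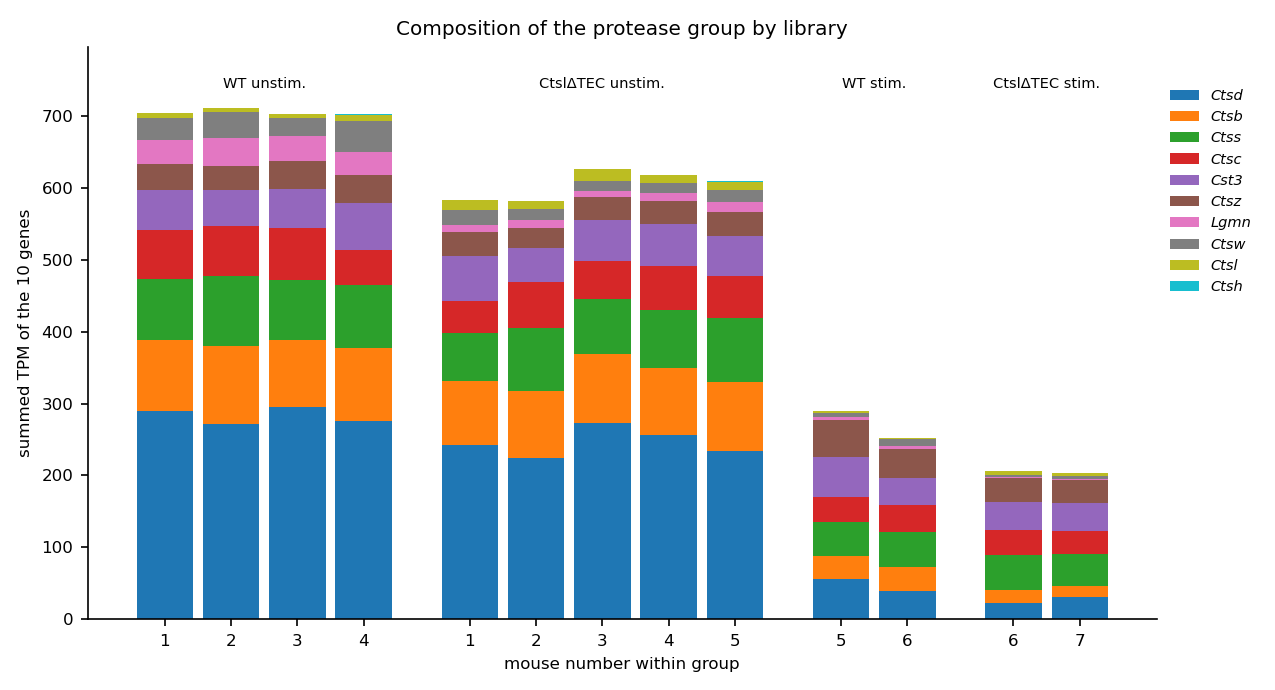
Stacked TPM of the 10 genes (y axis) in each of the 13 libraries (x axis, mouse number within group). The unstimulated stacks reach 703 to 711 in WT and 582 to 626 in CtslΔTEC mice, the stimulated ones 253 to 290.2 and 203 to 206, and Ctsd makes up most of the loss.

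Ctsd, Lgmn, Ctsb and Ctsw fell most. Ctsd was at 55.6 and 38.8 TPM in stimulated WT mice 5 and 6 and at 21.8 and 30.5 TPM in stimulated CtslΔTEC mice 6 and 7, a 5.57-fold and an 8.60-fold lower level than without stimulation (log2 fold changes -2.48 ± 0.18 and -3.10 ± 0.18, edgeR, adjusted p = 1.38e-08 and 1.09e-09). Its share of the summed TPM of the group went from 40.2% to 17.3% in WT cells and from 40.6% to 12.8% in CtslΔTEC cells. Lgmn fell 8.55-fold and 8.49-fold (log2 fold changes -3.10 ± 0.23 and -3.09 ± 0.26). Ctsb fell 3.04-fold in WT and 4.98-fold in CtslΔTEC cells, and Ctsw 4.20-fold and 3.27-fold. All adjusted p-values for Lgmn, Ctsb and Ctsw were at most 9.88e-05, and stimulated values of these 4 genes lay below every unstimulated value of the same genotype.

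Ctsl, Ctss and Ctsc fell less. Ctsl was at 3.85 and 2.01 TPM in stimulated WT mice 5 and 6 and at 4.79 and 3.98 TPM in stimulated CtslΔTEC mice 6 and 7. The log2 fold changes were -0.71 ± 0.27 in WT (edgeR, adjusted p = 0.0319) and -1.09 ± 0.25 in CtslΔTEC cells (0.0014). In WT the call rested on mouse 6, since without it the value was -0.21 (adjusted p = 0.576). Ctss fell 1.71-fold and 1.56-fold and Ctsc 1.65-fold and 1.64-fold, all 4 called. Ctss, the cathepsin of class II presentation in dendritic cells, thereby became the member with the highest mean in stimulated cells, at 48.0 ± 1.64 TPM in WT and 46.3 ± 3.58 TPM in CtslΔTEC cells (SD, n = 2 each). In WT cells its range overlapped those of Ctsd, Cst3 and Ctsz.

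Ctsz and Cst3 moved less. Ctsz was at 51.2 and 39.9 TPM in stimulated WT mice, above the 34.0 to 39.1 TPM of unstimulated ones, with a log2 fold change of 0.41 ± 0.13 (edgeR, adjusted p = 0.0124) that fell to 0.13 (adjusted p = 0.427) without WT mouse 5. In CtslΔTEC cells it gave 0.18 ± 0.13 (adjusted p = 0.215), and it was called with 10 counts in every library (0.0749) and on protein-coding transcripts (0.0859). Cst3 gave -0.19 ± 0.18 (adjusted p = 0.363) in WT and -0.34 ± 0.17 (adjusted p = 0.0911) in CtslΔTEC cells, and the second call was lost in 6 of 12 other settings and in 6 of 13 fits that left out 1 mouse. In WT cells Cst3 was called with limma on TPM (adjusted p 0.0944 and 0.095) and without WT mouse 5 (-0.54, adjusted p = 0.0256). Ctsh had 0 and 5 counts in stimulated WT mice and 2 and 10 in stimulated CtslΔTEC mice and was called in neither genotype. A count of 0 allows up to 3 counts, so little can be read from Ctsh at this depth. In WT cells it passed the threshold in 2 alternatives, against the unstimulated mice of the second date (-1.49, adjusted p = 0.0978) and without stimulated WT mouse 6, which leaves the WT mouse at 0 counts (adjusted p = 0.0823).

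**Figure D5:**
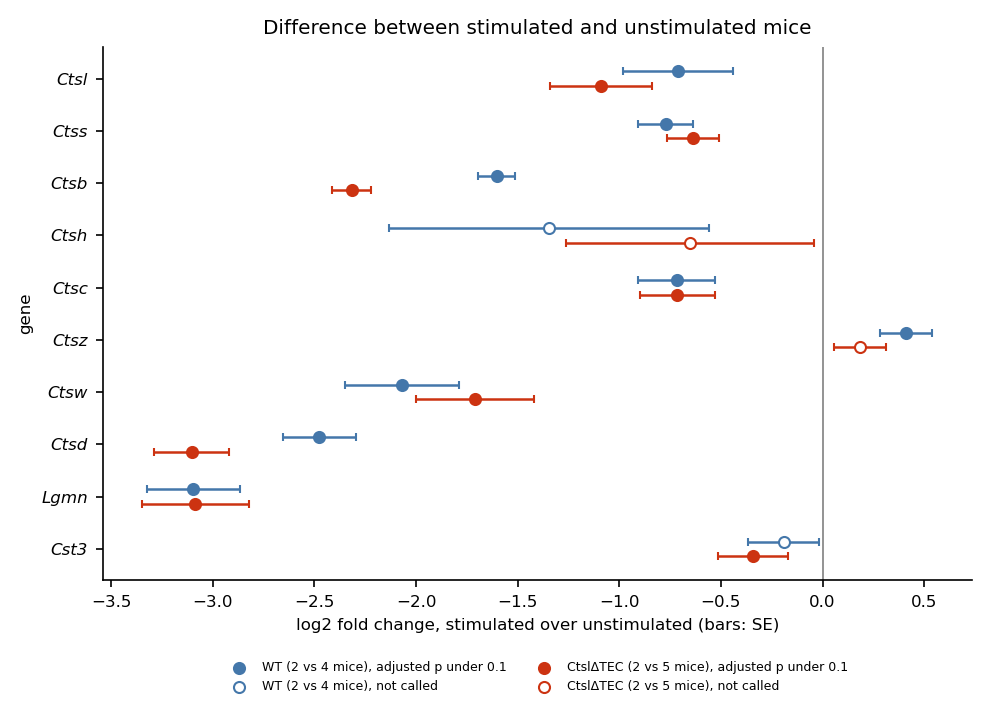
Log2 fold change of stimulated over unstimulated cells (x axis) for each gene (y axis) in WT (blue) and CtslΔTEC (red) mice, with SE bars and filled points for an adjusted p under 0.1. Lgmn and Ctsd lie furthest to the left, at -3.10 and -2.48 in WT and at -3.09 and -3.10 in CtslΔTEC mice, and Ctsz is the only gene called to the right.

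Between genotypes after stimulation, 4 of 10 genes were called, against 13.3% of 14241 genes tested, and all 4 were lower in CtslΔTEC cells (10.6% of all genes). The ranges did not overlap for 6 of 10, but with 2 mice in each group this held for 49.6% of all genes. The group median was -0.38, that of all genes -0.05. With 2 mice in each group the spread was taken from the model of all 13 libraries. Lgmn was at 4.48 and 3.86 TPM in WT and 1.43 and 0.827 TPM in CtslΔTEC mice, 3.27-fold lower in the latter (log2 fold change -1.71 ± 0.31, edgeR, adjusted p = 0.0035). Ctsb was at 32.7 and 33.7 against 18.1 and 16.1 TPM (log2 fold change -0.87 ± 0.10, adjusted p = 0.000197). Ctsd gave -0.89 ± 0.19 (adjusted p = 0.00916) and Ctsz -0.47 ± 0.15 (adjusted p = 0.0733).

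The calls of Ctsd and Ctsz after stimulation were lost without single libraries, and that of Ctsz also in 5 of 13 other settings. Without CtslΔTEC mouse 6 Ctsd gave -0.65 (adjusted p = 0.111) and Ctsz -0.50 (0.216), and without WT mouse 5, the shallowest library, they gave -0.51 (0.105) and -0.22 (0.556). Ctsz also lost its call without CtslΔTEC mouse 7 (-0.46, 0.231) and without unstimulated CtslΔTEC mouse 2 or 3. Lgmn and Ctsb were called in each of the 13 fits that left out 1 mouse, at -2.11 to -1.33 and -0.93 to -0.82. Ctsl was 0.47 ± 0.31 higher (adjusted p = 0.408), and its value ran from 0.95 without WT mouse 5 to -0.05 without WT mouse 6. Ctsw gave -0.79 ± 0.34 (adjusted p = 0.178), Ctsc -0.28 ± 0.22 (0.490), Ctss -0.04 ± 0.15 (0.927) and Cst3 -0.22 ± 0.21 (0.582). For Ctsh, with 10 counts at most, no direction was read from 1.58 ± 0.91 (adjusted p = 0.335).

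The interaction term asked whether the genotype difference changed with stimulation, and 1 of the 10 genes, Ctsb, passed it, against 6.01% of all genes. Its log2 interaction was -0.71 ± 0.12 (edgeR, adjusted p = 0.00769), and it stayed called in all 13 fits that left out 1 mouse (-0.77 to -0.63). The level of Ctsb in CtslΔTEC cells was thus 1.11-fold lower before stimulation, which was not called, and 1.83-fold lower after it. Most of the TPM of Ctsb sat on Ctsb-202, a retained-intron transcript, at 53.6% in unstimulated WT, 54.0% in unstimulated CtslΔTEC, 58.1% in stimulated WT and 54.6% in stimulated CtslΔTEC cells, and protein-coding transcripts alone also gave the call. Ctsd gave -0.63 ± 0.22 and did not pass (adjusted p = 0.161), but it did without CtslΔTEC mouse 7 (-0.93, adjusted p = 0.0635), without WT mouse 6 (-0.96, 0.0109) and with no count filter (-0.64, 0.0919). For Lgmn the interaction was 0.01 (adjusted p = 1.0) and for Ctsl -0.38 ± 0.36 (adjusted p = 0.689), so no change of the genotype difference with stimulation was detected for either.

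Around the group, no other endolysosomal peptidase that was tested was called higher in CtslΔTEC cells. Of 22 listed genes 11 were tested, and in unstimulated cells 0 rose and 2 fell, with a median of -0.18. Over all genes 6.42% were called higher and 8.36% lower, so 0 of 11 higher is near the share over all genes. Prss16, the thymus-specific serine protease, fell from 4.63 ± 1.21 TPM in WT to 2.12 ± 0.25 TPM in CtslΔTEC cells (edgeR, adjusted p = 0.00155). Ctsa, the carboxypeptidase cathepsin A, fell from 166 ± 14.5 to 142 ± 8.31 TPM (adjusted p = 0.0707). After stimulation 0 rose and 3 fell between genotypes, against 10.6% of all genes called lower, and of all calls only 20.8% were higher. The 3 were Ctsa (log2 fold change -1.08 ± 0.16), Pla2g15 (-1.21 ± 0.22), a lysosomal phospholipase, and Scpep1 (-1.19 ± 0.40). With stimulation, 8 of 11 fell and 1 rose in WT cells, and 7 fell and 1 rose in CtslΔTEC cells, against 34.8% and 38.2% of all genes called lower. Ctsa fell in both, from 166 to 36.5 TPM in WT and from 142 to 18.7 TPM in CtslΔTEC cells. Scpep1 rose in WT cells, from 1.29 to 4.41 TPM.

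In the list of inhibitors of cysteine proteases, which also holds serpins, 18 of 20 genes were in the annotation and 7 were tested in unstimulated cells. Only Cst7, cystatin F, an endolysosomal inhibitor of cathepsin C and its relatives, was called, a share near the 14.8% of all genes called. Cst7 rose from 3.88 ± 0.64 TPM in WT to 11.3 ± 2.83 TPM in CtslΔTEC cells (log2 fold change 1.49 ± 0.18, edgeR, adjusted p = 0.000216). With stimulation Cst7 rose to 60.5 ± 2.84 TPM in WT and 86.6 ± 2.14 TPM in CtslΔTEC cells, 16.9-fold and 8.75-fold (SD, n = 2 each). Of 8 inhibitors tested after stimulation, 1 was higher in CtslΔTEC cells, Cst7 (0.54 ± 0.19), and 4 were lower, against 13.3% of all genes called and 10.6% called lower, namely Serpinb9 (-1.41 ± 0.35), Serpinb6a (-0.49 ± 0.15), Serpinb6b (-1.12 ± 0.37) and Ctla2a (-1.63 ± 0.56). The first 3 of these 4 are serpins, a family named for inhibiting serine proteases, and Ctla2a resembles a cathepsin propeptide. The 4 are thus not read as a fall in cathepsin inhibitors. In WT cells 3 of 8 inhibitors rose and 3 fell with stimulation, and in CtslΔTEC cells 1 rose and 3 fell, against 67.7% and 71.2% of all genes called.

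Among genes of class II presentation, 2 of 10 tested were called in unstimulated cells and 2 of 10 after stimulation, against 14.8% and 13.3% of all genes. Ifi30, a lysosomal thiol reductase, fell from 42.4 ± 2.11 to 26.5 ± 3.69 TPM in unstimulated CtslΔTEC cells (edgeR, adjusted p = 0.000375), and H2-DMa rose from 17.4 ± 1.02 to 25.6 ± 4.26 TPM (adjusted p = 0.0219). After stimulation Ifi30 and H2-Oa were lower in CtslΔTEC cells, the latter at 0.0914 ± 0.13 TPM against 2.16 ± 0.61 TPM. With stimulation 6 of the 10 fell in either genotype, against 34.8% and 38.2% of all genes in WT and CtslΔTEC cells, and 1, Cd74, the invariant chain, rose, from 3.30 to 21.9 TPM in WT and from 2.93 to 17.9 TPM in CtslΔTEC cells. Among 7 granule genes tested in unstimulated cells 3 were called, against 14.8% of all genes. Nkg7 and Gzmc fell and Prf1 rose by 0.46 ± 0.14 (adjusted p = 0.0517). After stimulation, of 8 tested, Prf1 was higher by 0.75 ± 0.22 (adjusted p = 0.0459) and Gzmc lower, at 0.0 TPM in both CtslΔTEC mice, against 13.3% of all genes called. Srgn, the granule proteoglycan, rose with stimulation from 204 to 2710.0 TPM in WT and from 204 to 2827 TPM in CtslΔTEC cells, and of the 8 genes 3 rose and 3 fell in WT and 4 rose and 1 fell in CtslΔTEC cells, against 67.7% and 71.2% of all genes called.

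In the wider lysosome list, 6 of 52 genes tested rose and 1 fell in unstimulated CtslΔTEC cells, with a median of -0.04, which is near the share called over all genes (14.8%). Those with the smallest p were Gnptg (0.32 ± 0.07), Lipa (0.30 ± 0.08), Atp6ap2 (0.27 ± 0.07), Glb1 (-0.31 ± 0.08) and Psap (0.23 ± 0.06), the precursor of sphingolipid activators that is itself cut by cathepsin D. After stimulation 1 of 54 was higher and 14 were lower in CtslΔTEC cells, with a median of -0.21, against 10.6% of all genes called lower. The 5 with the smallest p were Glb1 (-1.05 ± 0.13), Scarb2 (-1.10 ± 0.14), Sgsh (-1.53 ± 0.24), Npc2 (-0.59 ± 0.11) and Gusb (-0.70 ± 0.13). With stimulation 13 rose and 23 fell in WT cells and 12 rose and 26 fell in CtslΔTEC cells, near the shares of all genes called (67.7% and 71.2%). M6pr, a sorting receptor for lysosomal enzymes, rose from 101.5 to 256 and from 105.9 to 300.4 TPM. Tfe3, a transcription factor of lysosomal genes, rose from 8.05 to 27.7 TPM in WT cells.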

How the data were processed

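RNA sequencing of sorted M2 CD4SP thymocytes was analysed in 13 libraries of 1 mouse each, grouped by the labels. The authors quantified transcripts with kallisto 0.48 (per the labels) with an index of Ensembl 106. Each deposited table gives, per transcript, an estimated count, a TPM value and an effective length. The estimated counts as deposited are not normalized. The deposited TPM are scaled to transcript length and library size, and the effective length column, deposited beside them, was used only as an offset. The labels describe polyadenylated RNA and the paper rRNA depletion, and the labels write Ctsl fl/fl for the controls where the paper writes Ctsl+/+.

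Of 117497 transcripts 116397 were paired with a gene through GENCODE M21 (GRCm38), which is older than the annotation the authors used, and the others held no more than 0.461% of any library's counts. Counts and TPM were summed to genes. Counts were rounded and compared with edgeR 4.0.16 (quasi-likelihood, TMM, filterByExpr) in R 4.3.3, with Benjamini-Hochberg adjustment over all genes tested and a threshold of 0.1. The unstimulated comparison used 9 libraries and the others a 4-group model of 13. The SE is the absolute log2 fold change over the square root of F. Each member was also tested by a two-sided exact permutation test on log2 CPM (prior count 2), in 10 tests with unadjusted p. The limit of 3 counts covers counting error only. The fits were also run on counts simulated with the same spread for every gene and without differences of sex or date. That run does not speak for calls that rest on single mice, and its outcome is not given here.

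The 10 genes, the lists and the tests were chosen with earlier results of these data known. Named genes are the 10, the list genes past the threshold (up to 5 for each list and comparison, by smallest p) and the 5 genes most like Ctsl among those whose mean log2 CPM was 1 or more. Alternatives were RLE, upper-quartile or no scaling factors, DESeq2 1.42.0, no count filter or 10 counts in every library, protein-coding transcripts, a length offset, limma 3.58.1 on log2(TPM + 1) and log2(TPM + 0.1) with a mean TPM of at least 1, a threshold of 0.05, date, sex-linked or mouse-number terms, and leaving out each mouse. Sequences are from RefSeq (GRCm38.p6). One gene of the lysosome list, which is none of the 10 members, is not reported here.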

Additional observations from a re-analysis of the deposited data

Results flagged for a closer look

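The genotype difference of Ctsb changed with stimulation by a test of the difference itself: its log2 interaction was -0.71, with values of -0.15 before and -0.87 after stimulation. The interaction also passed the threshold for 14 genes of the lists, all negative: 2 of 11 peptidases tested, 3 of 8 inhibitors, 1 of 10 class II genes, 0 of 8 granule genes and 8 of 54 lysosome genes, against 6.01% of all genes tested, of whose calls 18.8% were positive, so a negative sign was also the usual one over all genes. The 11 named, up to 5 for each list, were Ctsa (-0.78) and Pla2g15 (-1.03) among peptidases and their neighbours, Cst7 (-0.95), Serpinb6a (-0.61) and Serpinb9 (-1.30) among inhibitors, H2-Oa (-4.53) among class II genes, and Scarb2 (-1.13), Sgsh (-1.72), Lipa (-1.15), Glb1 (-0.74) and Npc2 (-0.56) among lysosome genes. In 20 groups of 4 or 5 mice, that is each of the 10 genes in each unstimulated genotype, no mouse stood apart by Dixon's test.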

How the results depend on the processing

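In unstimulated cells 5 members were called, 3 under limma on log2(TPM + 1) or log2(TPM + 0.1) and under the model of 13 libraries, 2 with the Y-linked covariate, 7 with date as a factor, and 4 to 6 when 1 mouse was left out. With mouse number as a replicate block 3 members and 1051 of all genes were called. Whether the numbers pair the mice was not settled. Deviations of same-numbered mice correlated at -0.155, 0.347, -0.097 and -0.138 for mice 1 to 4, and only the mice numbered 2 shared a date. So few values cannot decide it. After stimulation 2 to 4 members were called with 1 mouse left out. The interaction called 2 members with no filter and 1 to 2 with 1 mouse left out, and stimulation in CtslΔTEC cells 7 to 8. Ctsl and Lgmn kept their unstimulated calls in every setting run.

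Over all genes, the unstimulated count of 1943 became 1286 with limma on log2(TPM + 0.1), 429 with the Y-linked covariate, 2299 with DESeq2, 2710 with date as a factor and 1534 to 2343 with 1 mouse left out. The stimulated count of 1898 became 1127 from stimulated libraries alone and 945 to 2235 with 1 mouse left out, and the interaction count of 856 became 471 at a threshold of 0.05 and 334 to 1227 with 1 mouse left out. The share of calls that were higher went from 43.4% to 56.8% with library totals in unstimulated cells, from 20.8% to 36.6% with 10 counts in every library after stimulation, and from 18.8% to 29.4% with DESeq2 for the interaction. Library totals put the median of all genes at -0.12 for the interaction and -0.21 for stimulation in CtslΔTEC cells.

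Values that changed sign were not called in the reported fit, and the cause was not tested. Cst3 in unstimulated cells was 0.053 with the Y-linked covariate and -0.129 to 0.038 with 1 mouse left out. Ctss after stimulation was 0.009 with upper-quartile factors, 0.025 with 10 counts in every library, 0.005 on protein-coding transcripts, 0.012 from stimulated libraries alone and -0.119 to 0.024 with 1 mouse left out. The Ctsc interaction was -0.048 with library totals and -0.005 with no filter, and the Lgmn interaction -0.043, -0.0, -0.225 with a length offset and -0.181 with limma on log2(TPM + 0.1). With 1 mouse left out, stimulated values ran from -0.048 to 0.953 for Ctsl and -0.545 to 0.104 for Cst3, and Cst3 with stimulation in WT from -0.539 to 0.111. Interaction values ran from -0.896 to 0.104 for Ctsl, -0.547 to 5.698 for Ctsh, -0.091 to 0.149 for Ctsc, -0.477 to 0.03 for Ctsz, -0.391 to 0.389 for Lgmn and -0.474 to 0.175 for Cst3. Ctsl separated the genotypes, so alternatives for its correlation were not run. Ctsh, with 41 counts at most, and the pairs of stimulated mice limit what can be resolved.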

Other observations

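The list of 6 mature thymocyte genes went opposite to the DP list in unstimulated cells, with 5 called lower and 1 higher in CtslΔTEC mice and a median log2 fold change of -0.54, against 1.39 for the DP list. Over all genes 6.42% were called higher and 8.36% lower. Of 4 regulatory T cell genes, 2 were called higher and 1 lower, and their summed level was 9.68 to 14.4 TPM in CtslΔTEC and 3.34 to 7.24 TPM in WT mice, without overlap. The sum rested on Il2ra (3.68 against 0.79 TPM) and Ctla4 (7.31 against 2.23 TPM), which activated T cells also express, while the defining gene Foxp3 was not called (0.77 against 0.81 TPM, edgeR, adjusted p = 0.725) and Ikzf2 was lower (log2 fold change -0.72). After stimulation the DP list still summed higher in CtslΔTEC mice, at 70.5 and 73.4 TPM against 36.9 and 42.4 TPM.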
